A study of Daphnia magna with 12 samples.

Results

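In females of the water flea Daphnia magna, profiled as whole animals, 219 array probes had lost most of their signal together on the array of a single pool of animals. The pool was replicate 1 of the group exposed to 14.7 µg/L of tris(2-butoxyethyl) phosphate (TBEP), an organophosphate that serves as flame retardant and plasticiser. The probes were chosen by their measured values on that array. Of the 14338 probes, 10040 were kept, namely those that stood well above background on every array of 1 or more groups. A kept probe was a member if its signal on replicate 1 at 14.7 µg/L lay at least 4 log2 units (16-fold) below its median over the other 11 arrays. The rule took 219 probes, 2.18% of those kept. Their loss on that array is therefore a description of how they were chosen. Their levels and their covariation over the other 11 arrays, and the comparisons among those arrays, did not enter the rule beyond each probe's median and background flags.

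The study measured gene expression on 12 one-colour Agilent arrays, 3 for each of 4 groups. The groups were unexposed animals in culture medium and animals in TBEP at 14.7, 147 or 1470 µg/L, and every exposure lasted 21 days. Each array carried Cy3-labelled RNA from the whole bodies of 10 pooled females, which were less than a day old when the exposure started, so each value is a mean over animals and tissues. A pool was measured on a single array, so the animals cannot be told apart from their RNA preparation, labelling or hybridisation. Replicates 1 and 2 of every group lay on slide 1 and replicate 3 on slide 2, so slide and replicate number 3 cannot be told apart. An array showed 8925 to 11125 probes well above background, and the array's 75th percentile, to which each signal is set, lay between 171.9 and 261.3 intensity units.

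Daphnia magna reproduces by parthenogenesis for most of the year. An adult female moults, and with each moult she releases the brood from her dorsal brood pouch and lays the next clutch into it. Yolk provisioning, cuticle formation and the growth of embryos in the pouch thus follow the moult cycle, and RNA of the whole animal includes the mother's tissues, her oocytes and any brood she carries. In such bulk RNA, fewer cells of a type and less RNA per cell cannot be told apart. In the files used here a probe has a design identifier but no gene name, so the probes are described here by identifier and signal, and no cell type marker was checked.

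On replicate 1 at 14.7 µg/L the members formed the lower tail of the array. Counted over the kept probes, 332 lay at least 3 log2 units below their median over the other arrays, 219 at least 4, 140 at least 5, 100 at least 6, 49 at least 8 and 15 at least 10. The mirror of the rule, at least 4 log2 units above, took 2 probes on the same array. The members' median difference was -5.72 log2 units (52.6-fold lower), and the lowest was -15.30. Of the 219 members, 102 were still well above background there and were 16.0-fold to 2671-fold below their own median, with a median of 54.1-fold. The other 117 were not well above background, so their folds are lower bounds. Each was measured against the weakest signal that still counted as well above background on that array, or its own reading where higher. They were at least 4.14-fold to at least 10593-fold lower, with a median bound of 19.9-fold.

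The threshold fell within a continuous tail. The members just inside it were DM12674P2, with 66.4 intensity units against a median of 1257 on the other arrays, and DM05841P2, with 2.22 against 36.6. DM12674P2 was measured 16.0-fold below, while DM05841P2, dim on every array, was not well above background there and lay at least 4.19-fold below. Just outside, the rule placed DM01966P2 at -3.99 log2 units and DM12845P2 at -3.98. Neither was well above background on that array, and their bounds were at least 5.88-fold and at least 15.8-fold lower.

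The member farthest below was DM02749P1. The 3 controls read 71236, 125618 and 54787 intensity units, and the pools at 14.7 µg/L read 2.22, 104247 and 14062 units. At 147 µg/L the readings were 85933, 105263 and 59848 units, followed by 94495, 93190.4 and 55544 units at the highest dose. Only replicate 1 at 14.7 µg/L was not well above background, and it lay at least 10593-fold below the median of the others. Replicate 3 at the same dose was the next lowest, and the remaining 10 values lay between 54787 and 125618 units.

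DM02979P2 was also not well above background on replicate 1 at 14.7 µg/L. It gave 7.09 intensity units there against 14409.9 to 81219.9 elsewhere, and was at least 4721-fold below its median. DM06988P1 and DM02680P2 were still measured there, at 15.5 and 27.0 units, against ranges of 6704 to 55753 and 10072 to 123780 on the other arrays. They lay 2671-fold and 2576-fold below their medians. For DM02749P1, DM06988P1 and DM02680P2 the lowest of the other 11 arrays was replicate 3 at 14.7 µg/L, and for DM02979P2 it was replicate 3 at 1470 µg/L.

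The members were mostly strong signals on the other 11 arrays. Their median level over those arrays was 2.14 log2 units above the 75th percentile, with a range from -2.63 to 9.63, while the median over kept probes was -1.15. By this median, 156 of 219 members lay above the 75th percentile. Of the members, 210 (95.9%) were well above background on all 11 arrays, against 84.3% of kept probes. The rule could not take the dimmest probes, because background limits how far below its median such a probe can read. These differences from kept probes are therefore partly built in. Kept probes at or above the lowest member median numbered 7161, and members were 3.06% of those. Signals of different probes also depend on the probe itself, so these ranks describe signal and not numbers of transcripts. By signal, 2 of the 20 brightest kept probes were members, 8 of the 50 brightest, 14 of the 100 brightest and 23 of the 200 brightest.

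The brightest members were DM06785P4 and DM06973P1. DM06785P4 gave 119752, 230848 and 109297 intensity units in controls, and 126, 199474 and 42633 at 14.7 µg/L. At 147 µg/L it gave 184446, 185968 and 109334 units, and at 1470 µg/L 188832, 183416 and 96937. Replicate 1 at 14.7 µg/L was thus 1367-fold below the median of the other arrays, and within each group replicate 3 was the lowest of the arrays that remained. DM06973P1 gave 412 units on replicate 1 at 14.7 µg/L against 38919 to 168336 elsewhere, which is 317-fold below its median, and it had the same order within groups except in the controls, where replicate 1 was lowest.

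Most other bright probes of the same array kept their signal. Of the 177 non-members among the 200 brightest kept probes, 162 lay within 1 log2 unit of their median on replicate 1 at 14.7 µg/L, 13 lay at least 1 below and 2 at least 1 above. The members' share of the summed probe signal was 0.0784% on that array and between 3.62% and 12.5% on the other 11. The 10 spike-in control probes (E1A) differed by a median of 0.04 log2 units from their median over the other arrays before scaling, and the non-members by 0.08. Before any background correction, the members' median spot brightness on that array was 55 units, against 40 for the negative control spots. On the other arrays the members' median spot brightness lay between 430 and 1343.

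The loss was similar at separate spots of one probe, and the members were spread over the array. Of the members, 10 (4.57%) were printed at 2 spots, as were 7.15% of kept probes. Their spots differed by 0.016 to 0.443 log2 units on replicate 1 at 14.7 µg/L. The 2 spots of DM02038P1 gave 49.3 and 36.3 intensity units there, with medians of 6754 and 7186 on the other arrays. The medians of a probe, here and below, are ordered by size and not by spot. The spots of DM02274P1 gave 10.7 and 9.005 units against medians of 1132 and 1157, those of DM01917P1 17.7 and 15.8 against 1058 and 1115, and those of DM01895P1 36.9 and 35.8 against 1409 and 1463. With the array divided into 8 areas, members were between 1.73% and 2.72% of the kept spots of an area.

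No other array had a comparable set. With the same rule applied to each of the other 11 arrays in turn, between 0 and 10 probes lay at least 4 log2 units below the median of the rest. The largest of these sets, 10 probes on replicate 1 at 1470 µg/L, held 0 of the members. On replicate 3 at 14.7 µg/L the rule took 8 probes, of which 6 were members, and on replicate 2 at that dose 2 probes, both of them members.

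Over the other 11 arrays the members varied more than most probes. The median of their standard deviations was 0.79 log2 units (quartiles 0.63 and 0.97), while the median over kept probes was 0.30, and 212 of 219 members lay above the 75th percentile of kept probes, 0.43. The lowest and highest of the 11 values differed by a median of 5.45-fold for members and 1.93-fold for kept probes. A range above 16-fold was found for 33 members (15.1%), against 102 kept probes (1.02%), and a range above 2-fold for 216 members, against 45.8% of kept probes.

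Expressed as the difference from each probe's own median over the 11 arrays, the members' median was -0.60, 0.20 and -0.57 log2 units in control replicates 1, 2 and 3. It was 0.10 and -0.90 in replicates 2 and 3 at 14.7 µg/L, 0.19, 0.66 and -0.27 for the 3 replicates of 147 µg/L, and 0.19, 0.08 and -0.90 for those of 1470 µg/L. The members thus sat low on all 4 arrays of slide 2 and on control replicate 1, and highest on replicate 2 at 147 µg/L, and every group held both higher and lower arrays. Replicate 2 at 147 µg/L also had the lowest 75th percentile, 171.9 intensity units. Before scaling, the members' median intensity was highest on control replicate 2, with 1282 units against 1156 on replicate 2 at 147 µg/L. The median over non-members stayed between -0.03 and 0.07 on these 11 arrays.

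Smaller drops were measured in other pools. On replicate 3 at 14.7 µg/L, 42 members (19.2%) lay at least 2 log2 units below their median, against 64 of all kept probes (0.637%). The same held for 16 members on replicate 3 at 1470 µg/L, against 0.269% of kept probes. It held for 12 members on replicate 2 at 14.7 µg/L, against 0.309%. On each of the remaining arrays it held for 0 to 4 members, against 0.00996% to 0.578% of kept probes. The sets on replicates 2 and 3 at 14.7 µg/L, of 12 and 42 members, shared 5, the sets on replicate 3 at 14.7 and at 1470 µg/L shared 1, and the sets on replicate 2 at 14.7 and replicate 3 at 1470 µg/L shared 0. Of the 219 members, 153 were never this far below on any of the 11 arrays, and 10 were at least 4 log2 units below on at least 1 of them. These 2 counts were not made over all kept probes. Array by array, 0 to 7 kept probes lay at least 4 log2 units below.

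The members with the largest spread over the 11 arrays were DM04828P3, which was low on all arrays at 14.7 µg/L and is described with the group comparisons, and DM08434P2. DM08434P2 gave 2011, 3677 and 3354 intensity units in controls, and 20.1, 390.1 and 302.8 at 14.7 µg/L. At 147 µg/L it gave 479, 10.0 and 2989 units, and at 1470 µg/L 2967, 595 and 3109. It was low on all 3 arrays at 14.7 µg/L, but its lowest value was replicate 2 at 147 µg/L, where it was not well above background, so the groups at 14.7 and 147 µg/L overlapped.

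The members with the smallest spread showed a loss on replicate 1 at 14.7 µg/L alone. DM06252P1 gave between 116 and 187 intensity units on the 11 other arrays, with a standard deviation of 0.18 log2 units, and 1.97 units on replicate 1 at 14.7 µg/L, at least 19.0-fold below. DM02560P2 gave between 127 and 203 units, with a standard deviation of 0.24, and 2.11 units on that array, at least 17.2-fold below. After scaling, the lowest and highest of the 11 values differed by 1.36-fold for DM06252P1 and 1.63-fold for DM02560P2, so both were steady in all groups outside that pool.

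The members varied together over the 11 arrays. Over 23871 pairs of members, the median Pearson correlation across the 11 arrays was 0.50, with 49.98% of pairs above 0.5 and 20.8% below 0. Over pairs of kept probes the median was 0.014, with 13.1% above 0.5. The first principal component held 49.5% of the members' variance and the second 21.9%, and the first held 29.4% for kept probes. Within the 7 arrays of slide 1 the members' median correlation was 0.47, against 0.008 for kept probes. The probes of an array share its RNA, labelling and scaling, so these correlations describe the arrays and are given without a test.

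Most members followed one profile. The correlation of a member with the mean of the other members was at least 0.9 for 46 members, at least 0.8 for 101 and at least 0.5 for 158, between 0 and 0.5 for 43, and below 0 for 18. Among the members named here, it was 0.98 for DM06973P1, 0.96 for DM06785P4, 0.90 for DM02749P1 and 0.78 for the steady DM06252P1, and 0.26 for DM02560P2. The 101 members at 0.8 or above had a median difference of -6.34 log2 units on replicate 1 at 14.7 µg/L. Their median deviation was -1.01 on replicate 3 at 14.7 µg/L, -0.86 on replicate 3 at 1470 µg/L and 0.96 on replicate 2 at 147 µg/L.

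The 18 members below 0 had another profile. Their median difference on replicate 1 at 14.7 µg/L was -4.59 log2 units, but they were dim. Their median level was -0.45 over the 11 arrays, and 12 lacked a signal well above background on that array. The weakest signal that counted as well above background was -4.68 there, which limits the loss such probes can show. Their median deviation was 1.56 on replicate 3 at 14.7 µg/L and -1.49 on replicate 2 at that dose, so the 2 pools of this dose lay on opposite sides of the median. All 18 were higher on slide 2 than on slide 1 by their means, while 42.6% of kept probes were lower there. The 18 were picked by a correlation below 0 with a profile that was low on slide 2. Their direction between slides therefore follows largely from that choice. DM08434P2 had the lowest correlation with the other members, -0.42.

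A larger share of the members' spread lay between slides than between groups. Slides held a median of 39.7% of a member's variance over the 11 arrays and groups 19.9%, while for kept probes these were 8.53% and 19.8%. This comparison of slides was chosen after seeing the data. In a limma model with group and slide, 0 of 10040 probes (0%) differed between slides at an adjusted p under 0.05, and 0 members did. At an unadjusted p under 0.05, 134 members (61.2%) were lower on slide 2, against 5.4% of the probes tested, and 8 members (3.65%) were higher, against 4.01%. The median difference was -0.91 log2 units over members and 0.04 over all probes tested. At least 2-fold lower values were fitted for 92 members (42.0%), against 1.48% of probes.

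The members' median difference between slides had the same sign in the 4 groups. Each group had 1 array on slide 2, and 14.7 µg/L, without replicate 1, had 1 on slide 1. In controls, replicate 1 on slide 1 had a median member level of 1.60, below the 1.85 of replicate 3 on slide 2. The members' median difference of slide 2 from slide 1 was -0.37 log2 units in controls, -1.17 at 14.7 µg/L, -0.75 at 147 µg/L and -1.14 at 1470 µg/L. Members lower on slide 2 numbered 160, 175, 175 and 202 of 219 in these groups, against 54.9%, 40.7%, 45.4% and 48.4% of kept probes. The ranges nevertheless overlapped: for 6 members (2.74%) all 4 arrays of slide 2 lay below all 7 of slide 1, against 0.618% of kept probes. The number of slide calls depended on the treatment of single arrays. Without control replicate 1, which was low for a slide 1 array, 106 probes were called, 65 of them members, and with array weights 672 were called, 112 of them members. The fitted difference of slide 2 from slide 1 was -1.08 log2 units for DM06785P4 (SE 0.23, 95% interval -1.60 to -0.55, limma adjusted p = 0.272). It was -1.18 (SE 0.28) for DM02749P1 and -1.57 (SE 0.32) for DM06988P1, both at the same adjusted p, and -0.15 (SE 0.11) for the steady DM06252P1.

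The 4 groups overlapped in the members' overall level. The mean over arrays of the members' median log2 level was 1.94 ± 0.39 (SD, n = 3) in controls, 1.56 ± 0.67 (SD, n = 2, without replicate 1) at 14.7 µg/L, 2.36 ± 0.39 (SD, n = 3) at 147 µg/L and 2.03 ± 0.64 (SD, n = 3) at 1470 µg/L. The ranges of the arrays overlapped between every pair of groups. The comparisons below were fitted with limma on the 11 arrays over all 10040 probes, so the group at 14.7 µg/L has 2 arrays, and comparisons that share a group are not independent.

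At 14.7 µg/L, 1 of 10040 probes (0.00996%) differed from controls at an adjusted p under 0.05, and it was the member DM09561P4. At an unadjusted p under 0.05, 13 members (5.94%) were lower and 0 higher, against 1.01% of probes lower. At least 2-fold lower values were fitted for 33 members (15.1%), against 1.15% of probes. The members' median difference was -0.02 log2 units, with 106 higher and 113 lower. With slide as a block it was 0.10, with 126 higher and 93 lower. The 2 arrays of this group differed: without replicate 2 the median was -0.62, and without replicate 3 it was 0.45. The fit without replicate 2 called 6 of 10040 probes, 5 of them members, but it leaves 1 array in the group, whose spread is assumed to be that of the other groups.

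DM09561P4 gave 1334, 1673 and 872 intensity units in controls, and 7.80, 62.0 and 13.9 units at 14.7 µg/L, of which the first is replicate 1. It gave 798, 1474 and 1247 units at 147 µg/L and 895, 1373 and 987 units at 1470 µg/L. The other 2 arrays at 14.7 µg/L entered the rule only through the probe's median and background flags. Both lay below every value of the other groups, which overlapped one another. DM09561P4 was well above background on these 2 arrays, and its fitted difference from controls was -5.19 log2 units (SE 0.494, 95% interval -6.29 to -4.09, limma adjusted p = 0.0118). The call was lost with slide 1 alone (adjusted p = 0.421), without control replicate 1 (0.102) or 2 (0.0775), and when the 2 groups were fitted without the others (0.336), with the difference between -6.03 and -3.33 in every alternative.

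DM04828P3 and DM04036P4 were also lowest at 14.7 µg/L, but neither passed the test. DM04828P3 gave 2524, 3969 and 1406 intensity units in controls and 2.69, 67.0 and 5.86 units at 14.7 µg/L, where replicate 2 alone was well above background. It gave 1508, 2949 and 3769 units at 147 µg/L and 3409, 4024 and 1325 units at 1470 µg/L. Its fitted difference from controls was -6.71 log2 units (SE 0.873, limma adjusted p = 0.0930), on the 2 arrays at 14.7 µg/L other than replicate 1. Of these, replicate 3 was not well above background, so the fitted difference rests in part on a value that is only a bound. It passed the threshold in 4 of the 22 alternatives that left out the array of the rule. These were normexp background correction, the block for replicate number, the block for slide, and the fit without replicate 2 at 14.7 µg/L. In the last of them replicate 3 is the only array of its group and its spread is taken from the others. DM04036P4, chosen after its values were seen, gave 4792, 5685 and 2661 units in controls, 9.58, 364 and 43.2 units at 14.7 µg/L, and between 1743 and 6194 units at the higher doses. Its fitted difference was -4.84 log2 units (SE 0.781, adjusted p = 0.223).

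At 147 µg/L, 0 of 10040 probes (0%) and 0 members differed from controls at an adjusted p under 0.05. At an unadjusted p under 0.05, 3 members (1.37%) were higher and 0 lower, against 1.05% of probes higher. The members' median difference was 0.51 log2 units, against -0.006 over all probes, with 210 of 219 members higher. The members varied together, so these are not 219 separate observations. At least 2-fold higher values were fitted for 13 members (5.94%), against 0.269% of probes. With slide as a block, 20 members (9.13%) were higher at an unadjusted p under 0.05, against 1.35% of probes, and on slide 1 alone 50 (22.8%), against 2.34%, with a median of 0.65. The median was 0.22, with 173 members higher, without replicate 2 at 147 µg/L, 0.31 without control replicate 1 and 0.82 without control replicate 2. The members with the smallest p were DM03630P1, with a fitted difference of 1.03 (SE 0.22, adjusted p = 0.999), and DM06472P1, with 1.26 (SE 0.45). After scaling, DM03630P1 had log2 levels of 1.17, 1.48 and 1.76 in controls and 2.70, 2.22 and 2.58 at 147 µg/L. DM06472P1 had levels of -0.78, -0.18 and -0.12 in controls and 1.69, 0.28 and 0.74 at 147 µg/L. For both probes the groups did not overlap after scaling but did in unscaled intensity, and neither probe passed the adjusted threshold.

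At 1470 µg/L, 0 of 10040 probes (0%) and 0 members differed from controls at an adjusted p under 0.05. At an unadjusted p under 0.05 there were also 0 members, against 0.847% of probes. The median difference was 0.16 log2 units, against -0.002 over all probes, with 152 members higher and 67 lower. The sign depended on single arrays: the median was -0.05 when control replicate 1 or the first pool at 1470 µg/L was left out. It was -0.03 without the second pool of that dose, and 0.02 without control replicate 3. It was 0.46 without control replicate 2 and 0.51 without replicate 3 at 1470 µg/L. With slide as a block, 1 member (0.457%) was higher at an unadjusted p under 0.05, against 0.209% of probes. On slide 1 alone there were 9 (4.11%), against 0.448%, with a median of 0.44. The members with the smallest p were DM06472P1, with a fitted difference of 0.68 (SE 0.45), and DM07809P1, with -0.51 (SE 0.34, adjusted p = 1.00). DM07809P1 had log2 levels of 6.51, 6.01 and 6.85 in controls and 6.57, 5.77 and 5.52 at 1470 µg/L, so the groups overlapped.

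Between exposed groups, DM09561P4 was the only probe called on the 11 arrays. It was higher at 147 than at 14.7 µg/L by 5.43 log2 units (SE 0.494, 95% interval 4.33 to 6.54, limma adjusted p = 0.00776), 1 of 10040 probes (0.00996%). It was higher at 1470 than at 14.7 µg/L by 5.10 (SE 0.494, 95% interval 3.996 to 6.20, adjusted p = 0.0138), again 1 of 10040 probes (0.00996%). The F test over the 4 groups also called this probe alone (0.00996%, adjusted p = 0.0262), and at an unadjusted p under 0.05 it took 13 members (5.94%), against 1.58% of probes. The first call was lost without replicate 3 at 147 µg/L (adjusted p = 0.0621). The second was lost without replicate 1, 2 or 3 at 1470 µg/L (adjusted p = 0.0953, 0.0964 and 0.0635) or without control replicate 1 (0.0549). Both were also lost on slide 1 alone (0.329 and 0.326) and with each pair of groups fitted by itself (0.532 and 0.702). With 1 array left out at a time, the F test called 0 probes in all cases but 1, and 3 when replicate 2 at 14.7 µg/L was left out, a fit with 1 array in that group. Between 147 and 1470 µg/L 0 of 10040 probes (0%) and 0 members were called.

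At an unadjusted p under 0.05, 30 members (13.7%) were higher at 147 than at 14.7 µg/L, against 2.16% of probes, and 52 (23.7%) were at least 2-fold higher, against 1.5% of probes. For 1470 against 14.7 µg/L, 23 members (10.5%) were higher, against 1.11% of probes, and 1 (0.457%) was lower, against 1.38%. The median member differences were 0.51 and 0.16 log2 units. With slide as a block these medians were 0.40 and 0.06. Both comparisons share the same 2 arrays at 14.7 µg/L, of which replicate 3 was among the lowest of the 11 for the members. Without replicate 2 at 14.7 µg/L the median differences were 1.14 and 0.74, and 8 and 7 of 10040 probes were called, 6 of them members in each comparison. Replicate 3 is then alone in its group, with a spread assumed from the other groups. Without replicate 3 at 14.7 µg/L they were 0.02 and -0.33.

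For 1470 against 147 µg/L the members' median difference was -0.36 log2 units, against -0.0001 over all probes, with 195 of 219 members lower. As the members varied together, these are not separate observations. At an unadjusted p under 0.05, 3 members (1.37%) were lower, against 0.827% of probes. The median was 0.03, with 96 members lower, without replicate 3 at 1470 µg/L, and -0.09, with 144 lower, without replicate 2 at 147 µg/L. With any of replicates 1 and 2 at 1470 µg/L and replicate 3 at 147 µg/L left out, it lay between -0.61 and -0.53. The members with the smallest p were DM03630P1, with a fitted difference of -0.90 (SE 0.22, adjusted p = 1.00), and DM08421P2, with -0.83 (SE 0.34). DM03630P1 had log2 levels of 1.72, 1.75 and 1.34 at 1470 µg/L, all below its 3 values at 147 µg/L. DM08421P2 had levels of 1.15, 1.31 and 0.88 under 147 µg/L against 0.41, 0.82 and -0.39 under 1470 µg/L. These groups lay close together and did not overlap after scaling, but they did in unscaled intensity. Replicate 2 at 147 µg/L, where the members stood highest after scaling, enters each comparison with that dose.

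The profile of the members was shared by probes outside the set, and these were also low on replicate 1 at 14.7 µg/L, by less than the rule required. Non-members were grouped by their correlation with the members' mean profile over the 11 arrays, from which replicate 1 at 14.7 µg/L was left out. Of the 51 non-members at 0.9 to 1, 80.4% lay at least 1 log2 unit below their median on that array, with a median difference of -2.11. The median was -1.05 for the 129 at 0.8 to 0.9 and -0.45 for the 937 at 0.5 to 0.8. It was -0.11 for the 2891 at 0 to 0.5, 0.24 for the 3958 at -0.5 to 0 and 0.48 for the 1840 below -0.5. Over all non-members the median difference was 0.12 and 7.15% lay at least 1 log2 unit below.

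The probes outside the set with the most similar profile were DM12542P2, DM06930P1 and DM06101P3, with correlations of 0.976, 0.976 and 0.973 over the 11 arrays. DM12542P2 gave 88.5 intensity units on replicate 1 at 14.7 µg/L and between 442 and 1602 elsewhere, a difference of -3.54 log2 units. DM06930P1 gave 4711 units there and between 19838 and 72937 elsewhere, a difference of -3.36. DM06101P3 gave 7.28 units there and between 54.5 and 199.7 elsewhere. It was not well above background on that array and lay at least 13.5-fold below its median. All 3 were lower on replicate 1 at 14.7 µg/L than on any other array.

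The size of the loss differed among the 219 members. The correlation across members of the difference on replicate 1 at 14.7 µg/L was -0.60 with the median level. That median is subtracted in the difference, and the rule used both, so a negative value is partly built in. Background bounds the difference that a dim member can show. The correlation was -0.15 with the standard deviation over the 11 arrays, 0.36 with the difference between slides and 0.33 with the deviation on replicate 3 at 14.7 µg/L. These are descriptions over probes of the same arrays, which are not independent replicates.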

How the data were processed

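RNA of 12 pools was measured on one-colour Agilent arrays, 1 array per pool. The deposited files hold a linear intensity per spot, and the file headers name Agilent Feature Extraction 11.5.1.1 as the software. That software had subtracted the background from the processed signal, per the file headers, and set the spot flags and positions, other columns of the deposited files. The authors' deposited log2 table does not state its scale. Compared with log2 processed signals after quantile normalization, minus the median of each probe, it gave r between 0.999 and 1.00 per array and column medians between -0.03 and 0.13. It served as an alternative.

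The 28 outlier spots were left out, 0 probe spots were saturated, and the 870 probes with 2 spots were averaged. The value is log2 of the processed signal minus the array's 75th percentile over probes. A probe counts as well above background where at least 1 of its spots does. The group comparisons used limma 3.58.1 (R 4.3.3) on the 11 arrays other than replicate 1 at 14.7 µg/L, with group means and moderated variances. Tests were two-sided, with Benjamini-Hochberg adjustment over 10040 probes at 0.05. The step was tested on simulated data. Tables were made with Python 3.11.15 and pandas 2.3.3.

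The members, the comparisons and the rule for named probes were chosen with earlier results of these data known. Named were the 4 members farthest below, the 2 probes on each side of the threshold, the 2 brightest members, the 2 with the largest and the 2 with the smallest standard deviation and 4 printed at 2 spots. Also named were members called by limma (or, where there were 0, the 2 with the smallest p) and the 3 probes outside with the most similar profile. DM04036P4, the group values of DM04828P3 (named for its standard deviation) and the comparison of slides were chosen after seeing the data.

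The samples are biological replicates, per the labels, which name no batch for a replicate number. By the file headers replicate 3 of every group lay on slide 2 and the others on slide 1. Same-numbered arrays did not all deviate together, so the numbers were not used as pairs, and slide was tried as a block. The number of arrays limits the precision. The RefSeq genes of assembly ASM2063170v1.1 have nothing to match the probe identifiers, so gene names, positions and sequences are not given. Alternatives covered the normalization, normexp background correction (offset 50), the filter, the threshold, blocks for replicate number and slide, the variance model, and leaving out arrays.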

Additional observations from a re-analysis of the deposited data

Results flagged for a closer look

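DM09561P4 stood out because doses differed in a test of the difference itself. It was higher by 5.43 log2 units at 147 than at 14.7 µg/L (95% interval 4.33 to 6.54, limma adjusted p = 0.00776) and by 5.10 at 1470 than at 14.7 µg/L (95% interval 3.996 to 6.20, adjusted p = 0.0138). All 3 arrays at the higher dose lay above both arrays at 14.7 µg/L in each comparison. Over 24 alternatives each, the adjusted p ranged from 0.00141 to 0.532 for the first and from 0.00227 to 0.702 for the second, and it stayed under 0.05 in 21 and 18 of them. Of these alternatives, 1 includes replicate 1 at 14.7 µg/L, the array that chose the members, and without it the counts were 20 and 17 of 23. Both comparisons rest on the same 2 arrays at 14.7 µg/L, which lie on different slides. The cause was not tested.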

How the results depend on the processing

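No alternative changed the direction of a called result. For 147 and 1470 µg/L against control and 1470 against 147 µg/L, 0 probes were called in all 24 alternatives. For 14.7 µg/L against control, 1 probe and 1 member became 2 and 2 with all 12 arrays, 5 and 3 with normexp, 3 and 2 with the replicate block, 2 and 2 with the slide block, and 0 and 0 with slide 1 alone or each pair of groups alone. For 147 against 14.7 µg/L they became 2 and 2, 3 and 3, 6 and 4, 2 and 2, 0 and 0 under these settings, 2 and 2 with trend and robust variances, and 2 probes without the filter. For 1470 against 14.7 µg/L they became 2 and 2, 6 and 3, 2 and 2, 2 and 2, 0 and 0, and 2 probes with quantile normalization, the deposited values or no filter. The F test gave 2 and 2 with all 12 arrays, and 0 and 0 with quantile normalization, no filter, the deposited values or slide 1 alone.

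Same-numbered arrays of control, 147 and 1470 µg/L had deviations from their group means that correlated at -0.30 to 0.59, and 4 of 9 arrays correlated best with their own number. The replicate block is thus an alternative only, and its calls are those above. With all 12 arrays, including the array that chose the members, the median member differences were -1.98, 2.42 and 2.09 log2 units in the comparisons with 14.7 µg/L, and the slide difference was -0.065 with 0 members lower at an unadjusted p under 0.05. Array weights gave 672 probes and 112 members for the slides. The set held 332 probes at 3 log2 units, 140 at 5 and 86 with normexp, all 86 of them members. The first component held 58.4% in deviations from group means and 35.8% on slide 1 alone.

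Leaving out 1 array at a time gave these ranges. For 14.7 µg/L against control they were 0 to 6 probes, 0 to 5 members and a median of -0.62 to 0.45. For 147 against 14.7 µg/L they were 0 to 8, 0 to 6 and 0.019 to 1.14, and for 1470 against 14.7 µg/L 0 to 7, 0 to 6 and -0.33 to 0.74. The medians ranged over 0.22 to 0.82 for 147 µg/L against control, -0.05 to 0.51 for 1470 µg/L against control and -0.61 to 0.03 for 1470 against 147 µg/L. For the F test they were 0 to 3 probes and 0 to 2 members, and for the slides 0 to 106 and 0 to 65. The set held 207 to 224 probes, the median correlation was 0.45 to 0.53, and the first component held 46.7% to 54.8%. The causes of these shifts were not tested. Signal over background limits the folds of 117 members to bounds.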
